A study of Homo sapiens with 12 samples.

Results

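The 10 genes described here are the forkhead box O transcription factor genes FOXO1, FOXO3 and FOXO4, together with 7 genes that are known to rise when phosphatidylinositol 3-kinase (PI3K) signalling is low: PIK3IP1, SESN1, SESN3, TXNIP, CCNG2, CITED2 and KLF6. They were chosen by name from knowledge of the pathway and make up 10 of the 26485 genes listed in the expression table. The rule uses no measured value, but the choice was made with earlier results of these data known. All of them passed the filter on low values. The measurements come from bulk RNA sequencing of BT474, a HER2-positive breast cancer cell line, followed through acquired resistance to lapatinib, a small-molecule inhibitor of the EGFR and HER2 kinases. The 4 states compared had 3 libraries each, 12 in all.

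The Control libraries were taken at day 0. Drug-tolerant persister (DTP) libraries were taken at day 9, drug-tolerant expanding persister (DTEP) libraries at month 6 and long-term resistant (LR) libraries, labelled Resistant, at month 9. All 4 groups are of the same line, with genotype given as WT, and the dosing is described as 1 µM lapatinib renewed at 3-day intervals over 9 months. The treatment label names lapatinib at 1 µM for the Control libraries too, although they are dated to day 0. The study describes the 3 libraries of a state as technical replicates and also as coming from parallel plates, and how far the plates were kept apart during selection is not stated, so the p-values measure the spread between these libraries, which may be technical. With 1 cell line and 1 course of selection, the state and anything else that changed over 9 months of culture cannot be told apart.

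FOXO proteins switch on genes for growth arrest, stress defence, autophagy and cell death. In growing cells PI3K activates the kinase AKT, which phosphorylates FOXO proteins and holds them in the cytoplasm, so FOXO target genes are kept low while HER2 signals through PI3K. When the receptor or PI3K is inhibited, FOXO proteins enter the nucleus, and a relay that raises receptor and adaptor genes such as ERBB3 and IRS2 is a well-known response of HER2-positive cells. The phosphorylation and location of the proteins are not visible in RNA, and the values below are transcript levels only.

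Short promoter stretches are shown for the members whose promoter held one of the DNA words searched, because these words are where FOXO proteins and the basic helix-loop-helix factors are known to bind. The search covered the window from 250 bases before to 50 bases after the start of each gene (RefSeq sequence, build GRCh38.p14), on both strands. The FOXO core word GTAAACA was found in 2 of the 10 promoters, FOXO4 and TXNIP, and in 3.41% of all 27305 promoters. The E-box word CACGTG was found in 3 of the 10, CCNG2, CITED2 and KLF6, and in 7.44% of all promoters. The words do not overlap each other, and each stretch of 30 bases below is written 5′ to 3′ on the strand of its gene, with the word in capitals.
FOXO4, chrX:71095862-71095891, plus strand, word at bases 24 to 30 after the start: ccccggcgagtgGTAAACAgagacgtcagg
TXNIP, chr1:145996686-145996715, minus strand, word ending 118 bases before the start: gtcgggctcctgGTAAACAaggaccgggca
CCNG2, chr4:77157165-77157194, plus strand, word ending 25 bases before the start: tccgcggggagtCACGTGccccgccccctt
CITED2, chr6:139374784-139374813, minus strand, word ending 148 bases before the start: cagcctctgcagCACGTGccgcgggcggcg
KLF6, chr10:3785289-3785318, minus strand, word ending 92 bases before the start: cgcggggcgagtCACGTGgggggaggggga
No match was found in the windows of FOXO1, FOXO3, PIK3IP1, SESN1 and SESN3, which says only that these letters are not there. A match is a description of the sequence and not evidence that a factor binds.

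Values are normalised read counts, that is, reads scaled to a common library size (CPM) after trimmed-mean correction between libraries. Depth ranged from 16383363 to 25030482 assigned reads, and 1 read was worth 0.0412 to 0.0576 on this scale. The RNA is from a whole culture, so fewer cells of a type and less RNA per cell cannot be told apart. All 7 luminal epithelial markers were expressed in every group, but they moved both ways. Their summed level, most of it ERBB2 in Control, was 10520 to 11263 for Control and 12878 to 15300 for DTP, and lower in the DTEP (4240 to 6171) and LR (3991 to 5450) libraries. ERBB2 averaged 6526 in Control and 1774 in LR and CDH1 1125 and 75.1, while GATA3 averaged 190.3 and 1251. The summed level of 6 proliferation genes was lowest in the DTP libraries (149 to 152), with 1430 to 1446 for Control, 1502 to 1964 for DTEP and 501 to 1075 for LR. Of 12 markers of other cell types 3 were high enough to test: COL1A1, VWF and CD68. CD3E was at 0 in every library and PTPRC, the pan-leukocyte marker, reached 0.092. The summed level of the 12, most of it COL1A1, spanned 52.5 to 72.7 over the Control and DTP libraries. Over the DTEP and LR libraries it spanned 83.2 to 132. VWF went the other way, with a mean of 8.09 at day 0 and 0.118 at month 9. CD68 lay between 0.872 and 3.54 over all libraries. The part of these shifts in the levels of the 10 genes was not tested. DTEP replicate 3 stood apart from its group, with a correlation across genes of 0.934 to 0.962 with the other DTEP libraries and 0.971 to 0.986 with the LR libraries, and calls that change without it are given both ways.

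The 10 genes did not move as a block. Against Control, FOXO1, FOXO4, PIK3IP1, TXNIP and CITED2 rose in DTP and SESN3 fell, whereas FOXO3, SESN1, CCNG2 and KLF6 did not pass the test. By month 9, PIK3IP1 had lost most of its day 9 increase and TXNIP lay below Control, while FOXO1, FOXO4 and CITED2 were still above it. The test was limma on log2(value + 1), fitted to all 12 libraries with Benjamini-Hochberg adjustment over 13794 genes, and an adjusted p below 0.05 made a call. Log2 changes on this scale understate the change of genes at low levels.

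The counts by comparison stood as follows. In DTP against Control 5 members rose and 1 fell, where 25.2% of all tested genes rose and 28.8% fell (54% called), and the median change was 0.42 over the members and -0.01 over all genes. In DTEP against DTP 2 members were called, both lower, where 68.2% of genes were called (35.7% higher, 32.6% lower), with medians of -0.38 and 0.08. In LR against DTEP 1 rose and 1 fell, where 7.35% of genes were called (3.04% higher, 4.31% lower), with medians of 0.18 and -0.07. In DTEP against Control 3 rose and 3 fell, where 29.5% of genes rose and 28.7% fell (58.2% called), with medians of -0.05 and 0.02. In LR against Control 4 rose and 2 fell, where 30.2% rose and 32.6% fell (62.8% called), with medians of 0.33 and -0.03. In LR against DTP 2 rose and 3 fell, where 36.2% rose and 35.3% fell (71.5% called), with medians of 0.06 and 0.01. In every comparison except LR against DTEP most of the tested genes were called, so that a call there does not by itself set a member apart. The member medians leaned on single libraries. In LR against DTEP the median was 0.02 without DTEP replicate 2, 0.10 without LR replicate 1, 0.36 without DTEP replicate 3 and 0.38 without LR replicate 3. In DTEP against DTP it was -0.21 without DTEP replicate 2, and in DTEP against Control -0.19 without DTEP replicate 3 and -0.03 without Control replicate 2. In LR against DTP it ran from -0.04 to 0.15 with 1 library left out, below 0 without DTP replicate 1 or LR replicate 2. Scaling and method changed the sign as well. With all libraries, the LR against DTP median was -0.003 by median-of-ratios scaling and -0.005 by DESeq2, beside -0.06 over all genes in both. In DTEP against Control it was 0.06 by edgeR, beside 0.10 over all genes. The DTP and Control libraries did not overlap for 6 members, beside 77.3% of all genes, and the same held for 6 members, beside 77% of all genes, between LR and Control. The 6 comparisons share libraries and are not independent of each other.

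**Figure D1:**
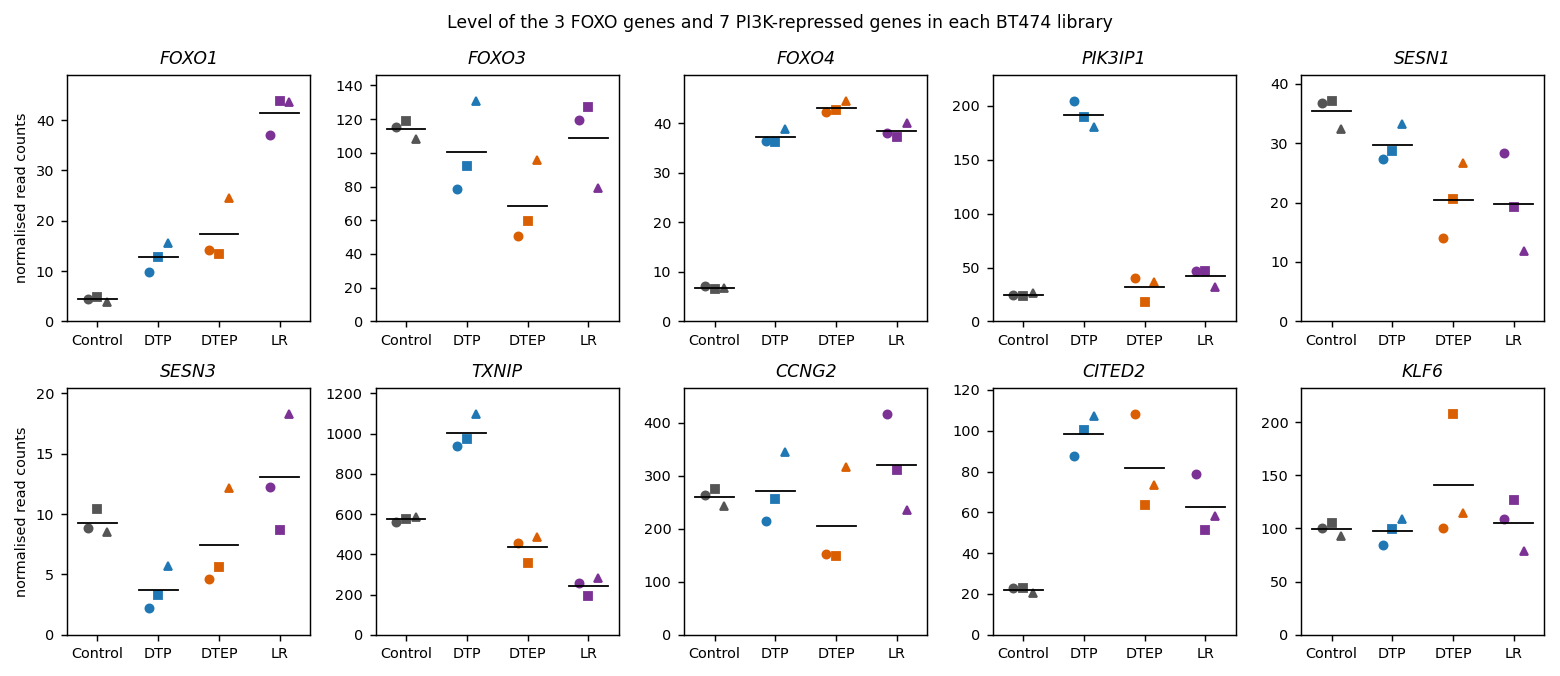
Level of each of the 10 genes in each library. The vertical axis is the normalised read count, the 4 groups are on the horizontal axis, each point is 1 library (circle, square and triangle for replicates 1, 2 and 3) and the bar is the group mean. FOXO4 and CITED2 sit above Control in all 9 later libraries, PIK3IP1 is high in the 3 DTP libraries, and TXNIP is highest in DTP and lowest in LR.

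FOXO1 encodes the FOXO protein best known for control by insulin, and its gene lies on the minus strand at chr13:40555667-40666641. Its level was 4.37, 4.95 and 3.87 in the Control libraries and 9.86, 12.8 and 15.5 in DTP. It was 14.3, 13.4 and 24.5 in DTEP and 37.1, 43.8 and 43.5 in LR. Every later library lay above every Control library, the 3 LR libraries lay above all others, and DTP and DTEP overlapped. The rise in DTP was 2.90-fold in group means (log2 change 1.33, SE 0.23, adjusted p = 0.000591 by limma). FOXO1 did not pass the test between DTP and DTEP (log2 change 0.39, 95% interval -0.12 to 0.91, adjusted p = 0.155), and without DTEP replicate 3 the difference was 0.13 (adjusted p = 0.546). LR stood 2.38-fold above DTEP (log2 change 1.25, adjusted p = 0.0142) and 9.43-fold above Control (log2 change 2.98, adjusted p = 4.61e-07 by limma). Without DTEP replicate 2 the step from DTEP to LR was no longer called (log2 change 1.10, adjusted p = 0.0741), and without DTEP replicate 3, whose 24.5 was the highest of its group, it was 1.51. With only the 6 libraries of DTEP and LR in the fit, the step was not called either (log2 change 1.25, adjusted p = 0.266 by limma). By level the order was Control, then DTP and DTEP without a called difference between them, then LR. The call of the last step depended on the libraries in the fit.

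FOXO4, which lies on the plus strand at chrX:71095851-71103532, had the tightest replicates of the 3 factors. Control libraries held 7.17, 6.58 and 6.71, DTP libraries 36.5, 36.1 and 38.9, DTEP libraries 42.2, 42.7 and 44.5, and LR libraries 38.0, 37.2 and 40.0. All 9 later libraries lay far above Control and within a narrow band of each other. FOXO4 rose 5.45-fold in DTP (log2 change 2.29, SE 0.12, adjusted p = 1.34e-07 by limma), and stood 6.32-fold above Control in DTEP (adjusted p = 1.41e-08) and 5.63-fold in LR (adjusted p = 1.89e-08). It was among the 1.01% of genes that rose in DTP by more than 2 on the log2 scale, with PIK3IP1 and CITED2, and with FOXO1 among the 5.03% that did so in LR. The DTEP libraries lay just above both DTP and LR without overlap, but neither step was called (log2 change 0.21, adjusted p = 0.153 from DTP to DTEP and -0.16, adjusted p = 0.352 from DTEP to LR, both by limma). LR against DTP differed by 0.05 on the log2 scale, with a 95% interval of -0.22 to 0.32. The FOXO core word shown above lies in the promoter window of this gene, just after the start.

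FOXO3, on the plus strand at chr6:108559825-108684774, was the most abundant of the 3 factors in Control and was not called in DTP or LR. Its level was 115, 119 and 108 in Control and 78.4, 92.2 and 131 in DTP. It was 50.6, 59.4 and 95.6 in DTEP and 119, 127 and 79.3 in LR. Replicates within each later state differed widely, and the DTP and LR ranges both overlapped Control. The change was -0.21 in DTP (95% interval -0.77 to 0.34, adjusted p = 0.503 by limma) and -0.10 in LR (95% interval -0.65 to 0.45, adjusted p = 0.750 by limma). The DTEP libraries all lay below Control, 1.66-fold lower in group means (log2 change -0.78, adjusted p = 0.0196 by limma). That call was lost without Control replicate 1 (adjusted p = 0.0515), Control replicate 2 (0.0567), DTEP replicate 1 (0.0742) or DTEP replicate 2 (0.0650), and without DTEP replicate 3 the change was -1.04 (adjusted p = 0.00177). Without DTEP replicate 3 FOXO3 was also called lower in DTEP than in DTP (log2 change -0.83, adjusted p = 0.00624, against -0.56 and 0.0657 with it) and higher in LR than in DTEP (0.94, adjusted p = 0.00575, against 0.68 and 0.0912 with it). FOXO3B, a near-identical copy, was also listed, at 1.36 to 5.06, so reads could be split between the pair. How reads that match both were counted was not examined, so the size of the error in the FOXO3 value is not known.

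Because the 3 transcripts differ in length, their balance was compared as normalised reads per kilobase of the reference transcript (5779 bases for FOXO1, 7296 for FOXO3 and 3644 for FOXO4). On this scale the Control mean was 15.6 for FOXO3, 1.87 for FOXO4 and 0.760 for FOXO1. FOXO3 thus made up 85.6% ± 0.336 (SD, n = 3) of the transcripts of these 3 genes in Control. Its share was 52.0% ± 4.81 in DTP, 38.0% ± 5.75 in DTEP and 45.2% ± 7.13 in LR. FOXO4 took 10.3% ± 0.635 in Control and 39.6% ± 5.22, 49.8% ± 7.42 and 32.6% ± 4.31 in the later states in the same order. The FOXO1 share was 4.16% ± 0.333 for Control, then 8.38% ± 0.704 (DTP), 12.2% ± 1.98 (DTEP) and 22.2% ± 3.19 (LR). The summed level of the 3 ran from 17.3 to 18.9 per kilobase over the Control libraries, with 22.5 to 31.3 (DTP), 21.0 to 29.6 (DTEP) and 29.4 to 35.2 (LR) later, so the sum of these 3 was higher in every later library than in any Control library. Within DTEP, replicate 3 held a FOXO4 share of 41.3% against 55.2% and 52.8% in the other libraries, and a FOXO3 share of 44.3% against 33.0% and 36.7%. FOXO6, the remaining gene of the family, is not in these sums. Its mean normalised read count was 6.78 in Control and 4.22 in DTP (log2 change -0.59, adjusted p = 0.0401 by limma), then 7.82 in DTEP and 11.6 in LR (0.67 against Control, adjusted p = 0.0194 by limma). The shares are a description without a test of their own.

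**Figure D2:**
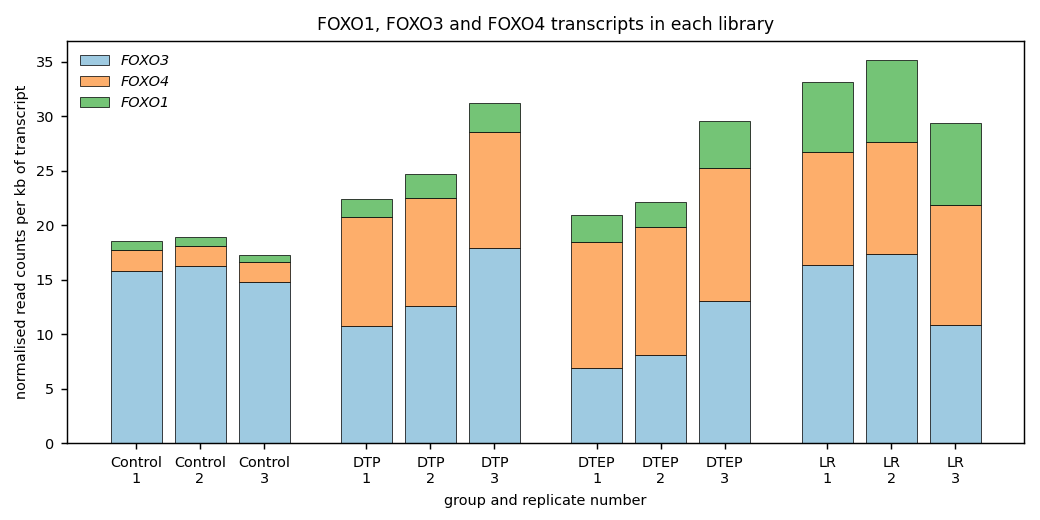
FOXO1, FOXO3 and FOXO4 transcripts in each library, in normalised read counts per kilobase of transcript (vertical axis), stacked as FOXO3, FOXO4 and FOXO1. FOXO3 fills most of each Control bar, while FOXO4 and, in LR, FOXO1 fill a larger part of the later bars.

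PIK3IP1 encodes a membrane protein that binds the catalytic subunit of PI3K and restrains it, and lies on the minus strand at chr22:31281593-31292534. Control libraries held 24.7, 23.4 and 26.5 and DTP libraries 205, 189.7 and 181. DTEP libraries held 40.4, 18.1 and 36.8 and LR libraries 46.4, 46.4 and 32.4. The 3 DTP libraries stood above every other library, and the DTEP range took in the whole Control range. PIK3IP1 rose 7.72-fold in DTP, the most of the 10 genes (log2 change 2.90, SE 0.25, adjusted p = 4.22e-06 by limma). It then fell 6.03-fold from DTP to DTEP (log2 change -2.63, adjusted p = 2.19e-06), one of the 7.02% of genes that fell there by more than 2 on the log2 scale. DTEP did not pass the test against Control (log2 change 0.27, 95% interval -0.28 to 0.81, adjusted p = 0.383), and without DTEP replicate 2, at 18.1, it did (0.62, adjusted p = 0.0109). In LR the level was 1.68-fold that of Control (log2 change 0.71, adjusted p = 0.0269), a call lost without Control replicate 1 (adjusted p = 0.0636), Control replicate 2 (0.0755), LR replicate 1 (0.0869) or LR replicate 2 (0.0835).

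TXNIP encodes an alpha-arrestin that binds thioredoxin and lowers glucose uptake, and lies on the minus strand at chr1:145992435-145996579. It was the most highly counted of the 10 in Control, DTP and DTEP, with 563, 576 and 585 in Control and 936, 972 and 1096 in DTP. In DTEP it was 457, 358 and 485, and in LR 255, 190.5 and 282. No pair of groups overlapped, and the order was DTP, Control, DTEP and LR from high to low. The rise in DTP was 1.74-fold (log2 change 0.80, SE 0.17, adjusted p = 0.00182 by limma). From DTP to DTEP the level fell 2.31-fold (log2 change -1.21, adjusted p = 4.32e-05), and LR was 4.13-fold below DTP (log2 change -2.06, adjusted p = 4.86e-07) and 2.37-fold below Control (log2 change -1.26, adjusted p = 3.76e-05). The neighbouring steps were less secure. DTEP was 1.32-fold below Control (log2 change -0.42, adjusted p = 0.0491), which 12 of 22 alternatives did not call, among them leaving out DTEP replicate 2 (adjusted p = 0.186) or any 1 of the 3 Control libraries (0.0963 to 0.117), while leaving out DTP replicate 1, 2 or 3 or LR replicate 1 gave 0.0531 to 0.0684. LR was 1.79-fold below DTEP (log2 change -0.84, adjusted p = 0.0178), which was lost without DTEP replicate 1 (0.0505) or LR replicate 2 (0.0554). It was also lost with only the 6 libraries of DTEP and LR in the fit (adjusted p = 0.298 by limma). TXNIP and PIK3IP1 thus shared the rise in DTP and the fall into DTEP, but in LR TXNIP was called below Control and PIK3IP1 above it.

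**Figure D3:**
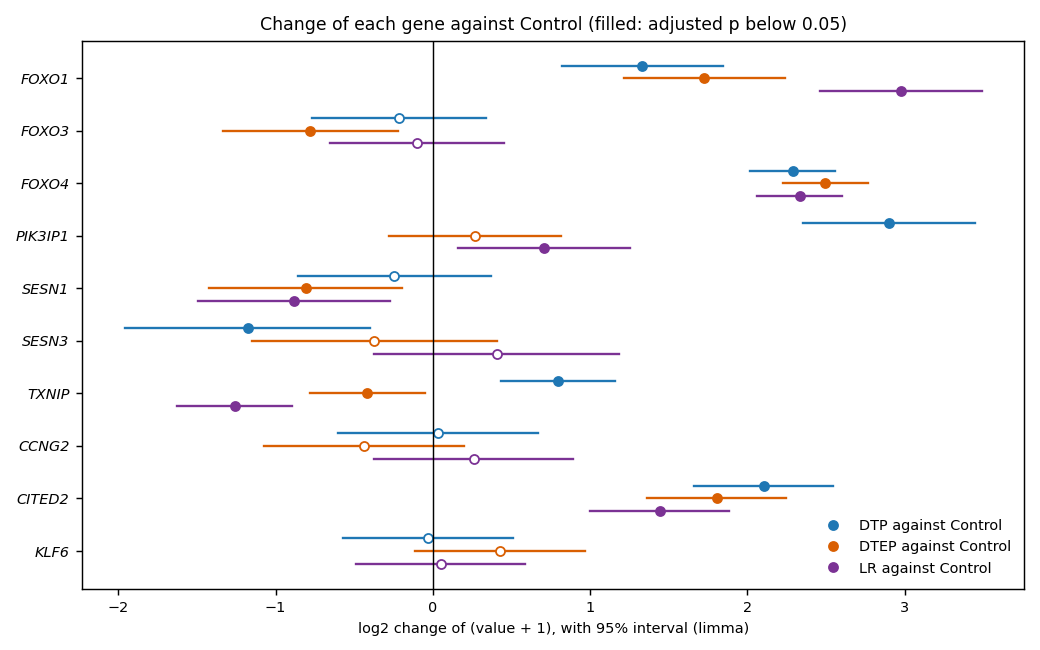
Log2 change of each gene against Control in DTP, DTEP and LR (horizontal axis, log2 of value + 1) with the 95% interval from limma. Filled points passed an adjusted p of 0.05. FOXO1, FOXO4 and CITED2 are to the right of 0 in all 3 states, TXNIP crosses from 0.80 in DTP to -1.26 in LR, and the KLF6 and CCNG2 intervals include 0 throughout.

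CITED2 encodes a co-regulator that binds CBP and p300 and competes with hypoxia-inducible factor for them, and lies on the minus strand at chr6:139371807-139374648. Control libraries held 22.9, 22.8 and 20.5, DTP libraries 87.7, 100.3 and 107, DTEP libraries 108, 63.6 and 73.5, and LR libraries 78.6, 51.3 and 58.1. All later libraries were above Control, and the LR libraries were all below the DTP libraries. CITED2 rose 4.46-fold in DTP (log2 change 2.10, SE 0.20, adjusted p = 9.39e-06 by limma) and was 3.70-fold above Control in DTEP (adjusted p = 1.11e-05) and 2.84-fold in LR (adjusted p = 6.08e-05). LR was 1.57-fold below DTP (log2 change -0.66, adjusted p = 0.0110 by limma), the only called step among the later states. DTEP replicate 1, at 108, was the highest DTEP library, and without it DTEP was called below DTP (log2 change -0.52, adjusted p = 0.0236, against -0.30 and 0.211 with it).

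SESN1 and SESN3 encode sestrins, stress-induced proteins that hold back the growth kinase complex mTORC1. SESN1, on the minus strand at chr6:108984309-109094846, held 36.8, 37.1 and 32.3 in the Control libraries and 27.4, 28.6 and 33.2 in DTP. The DTEP libraries held 14.0, 20.5 and 26.7 and the LR libraries 28.3, 19.3 and 11.9. DTP overlapped Control, and all DTEP and LR libraries were below Control. SESN1 did not pass the test in DTP (log2 change -0.25, 95% interval -0.86 to 0.37, adjusted p = 0.485 by limma). It was 1.74-fold below Control in DTEP (log2 change -0.81, adjusted p = 0.0266) and 1.79-fold below in LR (log2 change -0.88, adjusted p = 0.0160 by limma). The DTEP call was lost without Control replicate 1 (adjusted p = 0.0718), Control replicate 2 (0.0736), DTEP replicate 1 (0.10) or DTEP replicate 2 (0.0525), and the LR call without LR replicate 3 (log2 change -0.58, adjusted p = 0.0684). Without DTEP replicate 3 SESN1 was called lower in DTEP than in DTP (-0.77, adjusted p = 0.0292, against -0.56 and 0.0943 with it). ARMC2 overlaps SESN1 on the opposite strand at a mean level of 2.76. Default counting ignores strand, so a share of unknown size cannot be assigned.

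SESN3, on the minus strand at chr11:95165513-95232475, was the only member to fall in DTP. It held 8.88, 10.4 and 8.48 in Control and 2.19, 3.31 and 5.70 in DTP. It held 4.64, 5.60 and 12.2 in DTEP and 12.3, 8.69 and 18.3 in LR. The DTP libraries were all below Control and below LR, and DTEP overlapped every other group. The fall in DTP was 2.48-fold (log2 change -1.18, SE 0.36, adjusted p = 0.0153 by limma), and was not called without Control replicate 2 (-1.10, adjusted p = 0.0532) or DTP replicate 1 (-0.93, adjusted p = 0.0753). From DTP to LR it rose 3.50-fold (log2 change 1.58, adjusted p = 0.00169), while LR against Control was not called (0.40, adjusted p = 0.341). The DTEP value leaned on replicate 3, at 12.2, without which LR was called above DTEP (log2 change 1.15, adjusted p = 0.0126, against 0.78 and 0.144 with it). Without DTEP replicate 1 (adjusted p = 0.0274) or DTP replicate 3 (0.0247), SESN3 was called higher in DTEP than in DTP, against 0.80 and an adjusted p of 0.0631 with all libraries.

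CCNG2 encodes an atypical cyclin linked to cell cycle exit and is often used as a readout of FOXO activity. Here it did not pass the test in any of the 6 comparisons. The gene lies on the plus strand at chr4:77157207-77170060 and its level was 264, 276 and 243 in the Control libraries and 216, 256 and 344 in DTP. DTEP libraries held 152, 148 and 316, and LR libraries 416, 312 and 235. All 3 later states overlapped Control. The change in DTP was 0.03 (95% interval -0.60 to 0.67, adjusted p = 0.935 by limma), an interval that leaves room for a rise or fall of over 1.5-fold. DTEP replicate 3 again differed from its group, and without it CCNG2 was called 0.79 lower on the log2 scale in DTEP than in Control (adjusted p = 0.00928), 0.83 lower than in DTP (adjusted p = 0.0063) and 1.05 higher in LR than in DTEP (adjusted p = 0.00317).

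KLF6, a zinc-finger transcription factor gene on the minus strand at chr10:3775996-3785209, did not pass the test in any comparison either. Its level ranged from 92.6 to 105 over the Control libraries and from 84.2 to 109 over DTP. DTEP spanned 100.4 to 207 and LR 78.4 to 127. The 207 was DTEP replicate 2, and the other DTEP libraries were at 100.4 and 115. The change was -0.03 in DTP (95% interval -0.57 to 0.51, adjusted p = 0.927 by limma) and 0.05 in LR (adjusted p = 0.872). Without DTEP replicate 1, KLF6 was called higher in DTEP than in DTP (log2 change 0.67, adjusted p = 0.0319) and than in Control (0.63, adjusted p = 0.0467).

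Across the 12 libraries, some members tracked each other. On log2(value + 1) the Pearson correlation was 0.918 between FOXO4 and CITED2, 0.889 between FOXO3 and CCNG2, 0.799 between FOXO1 and FOXO4, 0.655 between FOXO3 and SESN1, 0.647 between PIK3IP1 and CITED2 and 0.616 between PIK3IP1 and TXNIP. Others ran opposite, with -0.652 between PIK3IP1 and SESN3, -0.632 between FOXO1 and SESN1, -0.631 between SESN3 and TXNIP and -0.611 between FOXO1 and TXNIP. These are the 10 largest in size among the members. These describe 12 points that fall into 4 groups and share each library's depth and scaling. Outside the list, the genes with the patterns most like FOXO1 were BBS2 (0.982), POU2F3 (0.976) and PPFIBP2 (0.976). Those most like FOXO3 were KDM7A (0.978), TRAF6 (0.972) and MAPK8 (0.969). STOM (0.995), FIG4 (0.990) and NDRG3 (0.981) were most like FOXO4, and ALOX12-AS1 (0.996), LINC01569 (0.989) and ASPRV1 (0.989) were most like PIK3IP1. They were picked as the highest of 13794 genes by this measure.

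Other known FOXO-activated genes moved in both directions. Of 22 listed, 21 were in the table and 20 were tested. In DTP against Control 10 rose and 1 fell, beside 25.2% and 28.8% of all tested genes, with a median log2 change of 0.49. In LR against Control 9 rose and 5 fell, beside 30.2% and 32.6%, with a median of 0.53. TNFSF10, the death ligand TRAIL, rose from 11.6 to 115 in DTP (log2 change 3.20, adjusted p = 1.31e-05 by limma) and was at 57.7 in LR (2.14, adjusted p = 0.000111). IRS2, an adaptor of the insulin receptor, rose from 1.43 to 16.2 in DTP (log2 change 2.82, adjusted p = 1.25e-05 by limma). In LR it was at 0.237 (adjusted p against Control = 0.00993 by limma). The LR libraries ranged from 0.0969 to 0.338, where 3 reads are worth up to 0.166, so the LR level rests on few reads. GABARAPL1, an autophagy gene, rose from 18.2 to 133 in DTP (log2 change 2.81, adjusted p = 0.00139 by limma) and fell to a mean of 0.520 in LR (log2 change against Control -3.68, adjusted p = 0.000121). ERBB3, the receptor HER3, was at 384 in Control and 455 in DTP, a step that was not called. It was then at 731 in DTEP with libraries from 471 to 1211. In LR it was at 1090.3 (2.84-fold above Control, adjusted p = 0.000505 by limma). Among the genes of this list named here, IRS2 and GABARAPL1 shared with PIK3IP1 a high DTP level followed by a called fall into DTEP. Unlike PIK3IP1 they ended below Control. The genes of the list that are not named were not compared in this way.

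The components of the PI3K and AKT pathway itself moved mostly down in DTP. Of 20 tested (of 21 listed), 13 fell and 1 rose in DTP against Control, beside 28.8% and 25.2% of all tested genes, with a median of -0.63. In LR against Control 7 rose and 5 fell, near the 30.2% and 32.6% over all genes, with a median of 0.29. RICTOR, the defining subunit of mTORC2, fell from 84.5 to 21.7 in DTP (log2 change -1.98, adjusted p = 0.00224 by limma). The regulatory subunit PIK3R3 fell from 303 to 116 (-1.38, adjusted p = 4.62e-06) and PHLPP2, a phosphatase that acts on AKT, from 81.2 to 37.8 (-1.09, adjusted p = 0.000334). In LR, INPP4B, a lipid phosphatase that opposes PI3K signalling, fell from 118 to 4.66 (log2 change -4.40, adjusted p = 1.83e-07 by limma), and the regulatory subunit PIK3R2 rose from 105 to 369 (1.80, adjusted p = 1.72e-06).

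Of 12 genes whose proteins modify FOXO factors or help them act, 8 fell in transcript level in DTP against Control and the other 4 were not called, where 28.8% of all tested genes fell (median -0.73). In LR against Control 4 rose and 4 fell, where 62.8% of genes were called (median 0.03). SKP2, part of a ubiquitin ligase that targets FOXO1, fell from 60.0 to 15.3 in DTP (log2 change -1.91, adjusted p = 2.3e-05 by limma) and was at 20.2 in LR (-1.57, adjusted p = 3.87e-05). EP300, the acetyltransferase p300, went from 224 to 88.0 in DTP (log2 change -1.37, adjusted p = 0.00542 by limma) and to 584 in LR (1.38, adjusted p = 0.00404). MDM2, another ubiquitin ligase, fell from 118 to 47.6 in DTP (-1.31, adjusted p = 6.42e-05), and the kinase IKBKB rose from 59.2 to 186 in LR (1.63, adjusted p = 3.55e-05 by limma).

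**Figure D4:**
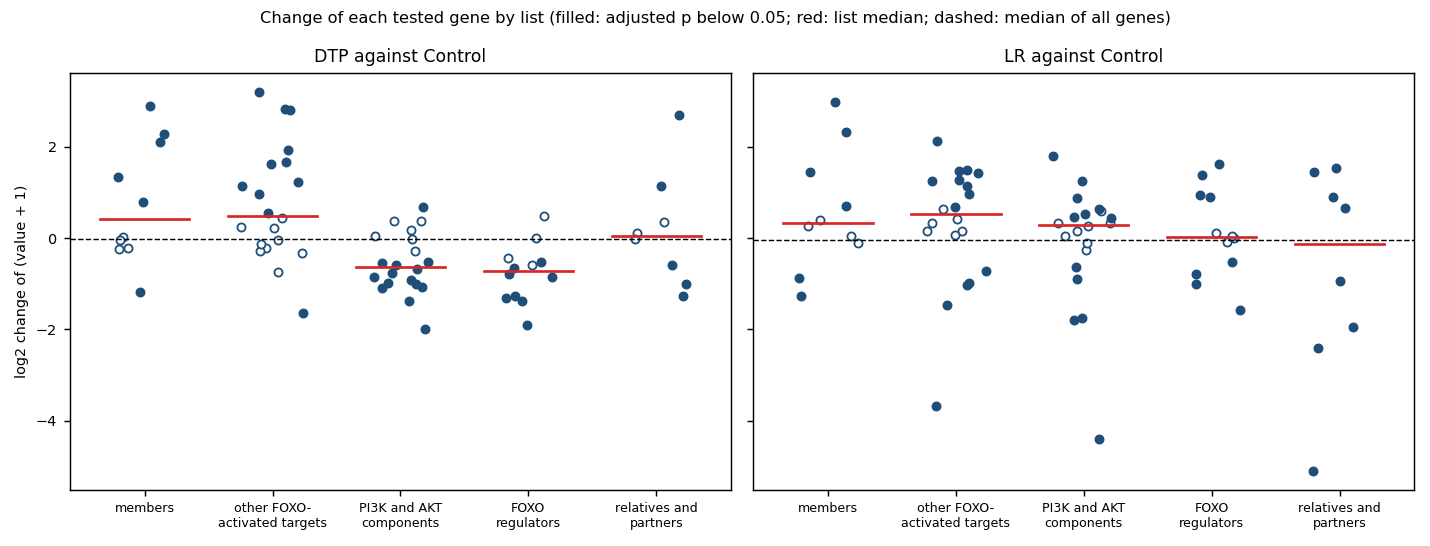
Log2 change of each tested gene (vertical axis) by gene list, for DTP against Control (left) and LR against Control (right). Filled points passed an adjusted p of 0.05, the red bar is the list median and the dashed line the median of all genes. The median of the PI3K and AKT components is -0.63 in DTP and 0.29 in LR.

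The close relatives of the members often took another course. ARRDC4, the arrestin most like TXNIP, fell where TXNIP rose: it went from 77.8 in Control to 39.3 in DTP (1.98-fold lower, adjusted p = 0.00126 by limma). Its mean was 22.8 in DTEP and 13.8 in LR, where the change against Control was -2.42 (adjusted p = 6.12e-07 by limma). SESN2, the remaining sestrin, rose from 23.4 to 53.1 in DTP (1.14, adjusted p = 0.000252 by limma) and stood at 66.0 in LR, whereas SESN1 was lower in LR than in Control. CITED4 rose with CITED2 in DTP, from 2.94 to 25.1 (2.70, adjusted p = 0.000289 by limma), but had 1, 0 and 0 reads in the LR libraries (adjusted p = 0.00179), where CITED2 was still above Control. CCNG1 fell from 75.8 to 31.3 in DTP (-1.27, adjusted p = 0.00244 by limma) and was at 223 in LR. KLF7 was at 38.8 in Control and had 2, 2 and 6 reads in the LR libraries (adjusted p = 1.05e-07 by limma), beside a KLF6 level that was not called changed. Of the 8 relatives and partners, 2 rose and 3 fell in DTP (median 0.04), where 54% of all tested genes were called, and 4 rose and 4 fell in LR (median -0.14), where 62.8% were. The difference in course between a gene and its relative was not tested.

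**Figure D5:**
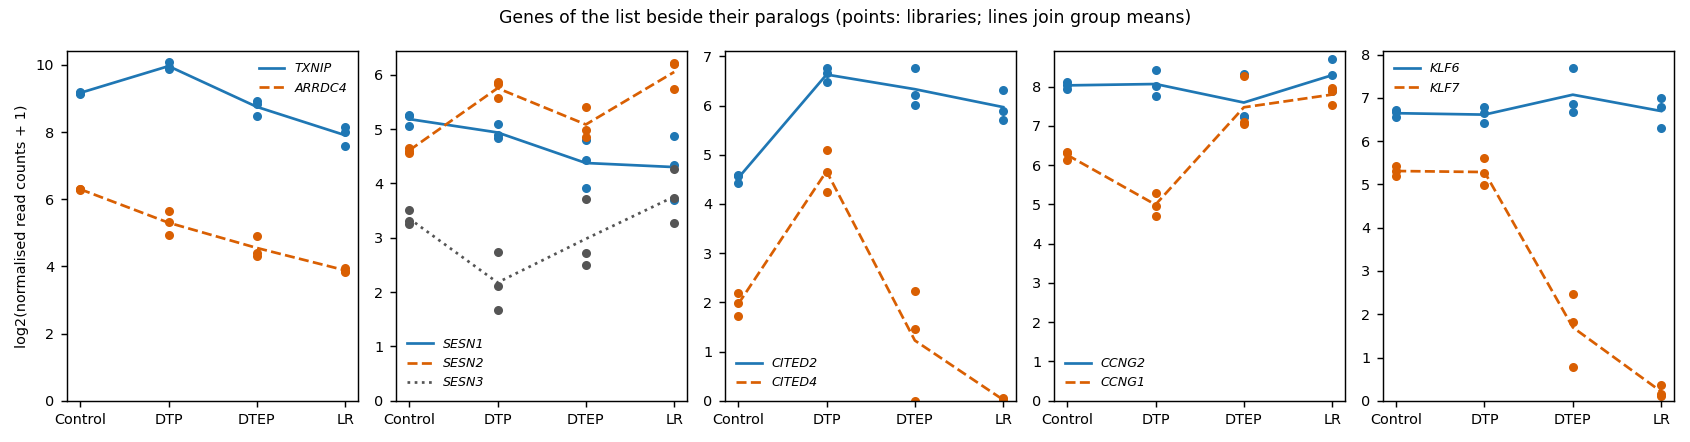
Members beside their paralogs, as log2 of the normalised read count + 1 (vertical axis) in each library, with lines joining the group means. ARRDC4 falls from Control onwards while TXNIP peaks in DTP, and CITED4 and KLF7 approach 0 in LR while CITED2 and KLF6 do not.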

How the data were processed

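Poly(A) RNA libraries of BT474 cells (TruSeq Stranded mRNA) were read with Rsubread against hg38 and RefSeq gene models in the study, and the authors deposited 1 table of trimmed-mean-scaled CPM, treated here as a signal; bcl2fastq and edgeR are named in the submitters' processing notes, without versions. Counting used Rsubread's default settings, which ignore strand. All 199680 values above 0 (100%) were whole multiples of what 1 read is worth (tolerance 1e-06), so reads were recovered. Of 26485 genes, the 13794 that reached a value of 1 in 3 or more libraries entered limma 3.58.1 (R 4.3.3, trend) on log2(value + 1) over all 12 libraries, adjusted by the Benjamini-Hochberg method in each of 6 comparisons. Depth was 16383363 to 25030482 reads, so 3 reads correspond to 0.124 to 0.173.

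Samples were grouped by their labels, and no pair of replicates agreed within sampling noise (chi-square per gene of at least 1.70, where noise alone gives about 1). This value was 1.70 to 6.13 within Control, 7.11 to 41.3 within DTP, 73.1 to 236 within DTEP and 55.3 to 84.8 within LR. The fit on all 12 libraries shares 1 estimate of the spread of a gene over these unequal groups. The members and lists were chosen with earlier results of these data known. Named from each other list were the 3 called genes with the largest change in DTP and in LR against Control, with groups that did not overlap, and the 3 genes most like FOXO1, FOXO3, FOXO4 and PIK3IP1 by correlation; 1 gene that this rule names is not reported here. Replicate numbers were not treated as pairs in the main fit. Same-numbered libraries deviated together with correlations of -0.441 to 0.359, over 0.1 in 2 of 18 pairs, both in DTEP against DTP (0.359 and 0.335). Deviations within a group of 3 sum to 0, which constrains these correlations, so they cannot exclude a pairing. Alternatives were other pseudocounts, filters, scaling, a replicate block, single libraries left out, and, on the recovered reads, edgeR 4.0.16 and DESeq2 1.42.0, which called 1703 and 3093 genes in LR against DTEP, where limma called 1014. Coordinates are from RefSeq on GRCh38.p14, and transcript lengths from GENCODE. Protein sequences were not analysed here.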

Additional observations from a re-analysis of the deposited data

How the results depend on the processing

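Each of the 60 member changes was computed under 22 alternatives, giving 1320 values. Of these 1244 kept their direction and their side of the threshold, 32 lost the call, 24 gained it and 20 changed sign, all of the last among changes that were not called. Of the 27 called changes, 19 were called under every alternative. The number of members called in DTEP against DTP was 2, and 2 to 5 with 1 library left out (5 without DTEP replicate 1 or DTEP replicate 3, 4 without LR replicate 3). In LR against DTEP it was 2, and 1 to 5 with 1 library left out (5 without DTEP replicate 3, and 1 without DTEP replicate 1, DTEP replicate 2 or LR replicate 2). With only the 6 libraries of that comparison limma called 0 members and 0 of all genes (2 members and 2260 genes at an unadjusted p below 0.05). Fitted to all 12 libraries, edgeR called 1703 genes (522 higher, 1181 lower), DESeq2 3093 (1010 higher, 2083 lower) and limma 1014 (419 higher, 595 lower). Without a filter limma called 537 genes, and with 1 library left out 144 to 6529, the highest without DTEP replicate 3. In DTEP against Control 6 members were called, and 3 to 7 with 1 library left out (3 without Control replicate 1 or 2). In DTP against Control and LR against Control 6 members were called, and 5 to 6 with 1 library left out.

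With the replicate number as a block, 1 member call changed: SESN3 was then called higher in DTEP than in DTP (log2 change 0.80, adjusted p = 0.0267), and 655 genes were called in LR against DTEP. Whether the numbers pair these libraries was not settled.

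The member changes that changed sign were small in the main fit, at most 0.114 in size (FOXO3 in LR against DTP). Their reversed values reached 0.233 (SESN1 in LR against DTEP without LR replicate 3). For KLF6 in DTP against Control, median-of-ratios scaling gave 0.014, edgeR 0.0347 and DESeq2 0.0333, and leaving out 1 library -0.116 to 0.0683. Leaving out 1 library gave CCNG2 -0.149 to 0.188 in DTP against Control and KLF6 -0.0995 to 0.242 in LR against Control and -0.0666 to 0.275 in LR against DTP. SESN1 in LR against DTEP was 0.00811 by edgeR and -0.36 to 0.233 with 1 library left out. FOXO3 in LR against Control was 0.0215 by edgeR and -0.226 to 0.11 with 1 library left out, and in LR against DTP -0.0459 to 0.323. FOXO4 in LR against DTP was -0.0207 by median-of-ratios scaling and -0.0346 by DESeq2. FOXO3 was called lower in DTEP than in DTP by median-of-ratios scaling (adjusted p = 0.0356) and DESeq2 (0.0303), without DTP replicate 1 (0.0413) and without LR replicate 3 (0.0499), and SESN1 was called lower in LR than in DTP under 5 alternatives (adjusted p = 0.0103 to 0.0474). The cause was not tested.

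Limits of depth touch the low genes, where 3 reads are worth up to 0.173. FOXO1 and FOXO4 in Control were well above this level, whereas IRS2 in LR, at 0.0969 to 0.338, was close to it.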
